A study of Mus musculus with 6 samples.

Results

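*Lgr5*-positive pre-granulosa cells of the fetal mouse ovary were taken from the 2 control XX libraries of a single cell mRNA series on gonads at E15.5 (E for embryonic day). A cell was a member when it held at least 3 UMIs of *Lgr5*, at least 300 CPM of *Kctd14*, fewer than 5 UMIs of *Dazl* and fewer than 2 UMIs of *Upk3b*. A UMI (unique molecular identifier) stands for 1 captured mRNA molecule, and CPM is the number of UMIs of a gene in each 1000000 UMIs. *Kctd14* served as the gene of the supporting lineage, *Dazl* marks germ cells and *Upk3b* marks the surface epithelium of the gonad. These limits left 1284 members among the 10111 control XX cells that passed the quality filters, out of 39350 such cells in the series. They were compared with 2333 control XX cells that had at least 300 CPM of *Foxl2* and *Fst* together and at most 1 UMI of *Lgr5*, called *Foxl2*/*Fst*-gated cells here. The cells were thus chosen by the measured values of these 6 genes, whose levels are given below as a description with no test.

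The series holds 2 libraries each of control XX gonads (ovaries, *Amh*+/+; *Inhbb*+/+), control XY gonads (testes, *Amh*+/+; *Inhbb*+/+) and dKO XY gonads (labelled testes, *Amh*-/-; *Inhbb*-/-, without anti-Müllerian hormone and activin B in any cell). The study describes the dKO XY gonads at this age as ovotestes, with FOXL2-positive cells at their poles. All embryos were at E15.5 on a C57BL/6 background. Gonads of 1 animal were pooled, dissociated, frozen and thawed before the cells were captured in droplets. Replication is thus 2 libraries per genotype. Between genotypes, p-values rest on the spread between libraries of a genotype. Within a genotype the library is a block, and p-values rest on how unevenly the populations differ from library to library. That spread is pooled over all populations and genotypes in the fit.

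Granulosa cells are the supporting cells of the ovary, and the cells that become them in the fetus are called pre-granulosa cells; the corresponding supporting cells of the testis are Sertoli cells. LGR5 is a receptor for R-spondins, secreted proteins that raise WNT signalling by removing the ligases ZNRF3 and RNF43, which otherwise take WNT receptors off the cell surface. In the ovary RSPO1 and WNT4 act through β-catenin in the supporting cells, and LGR5 is known as a marker of pre-granulosa cells that arise near the ovarian surface, whereas FOXL2 is the transcription factor known for granulosa identity.

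The 2 control XX libraries stood apart in how many members they gave. Control XX 1 held 1046 members among 5330 cells, or 19.6% (exact 95% binomial interval 18.6 to 20.7), and control XX 2 held 238 among 4781, or 4.98% (4.38 to 5.63). A second share was taken over cells with at least 300 CPM of *Kctd14* that met the *Dazl* and *Upk3b* limits or were *Foxl2*/*Fst*-gated. Of these the members made up 33.0% of 3170 cells and 16.3% of 1457 cells. Both shares were therefore lower in control XX 2, by more than counting error, and values of each library are given separately below. The *Foxl2*/*Fst*-gated cells numbered 1570 and 763. Members carried more UMIs than the comparison cells, with medians of 27828.5 and 34826 against 21349.5 and 16909 per cell, and a floor of 3 UMIs selects deeper cells. Each of the 6 libraries gave between 118475468 and 221675316 UMIs in cells that passed, and any 2 of them shared 22 to 74 cell barcodes, with 22 shared by the control XX pair.

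By construction *Lgr5* was high in the members. Summed over cells it stood at 194 and 157 CPM in the members of control XX 1 and 2, and at 10.9 and 11.2 CPM in the *Foxl2*/*Fst*-gated cells. Cells of the surface epithelium, gated on *Upk3b*, held 123 and 46.6 CPM of *Lgr5*, so this gene was not restricted to the supporting lineage. In stromal cells it was 2.68 and 1.03 CPM, in germ cells 4.01 and 0.735 CPM, and in endothelial cells 1.75 and 0.213 CPM. *Lgr5* lies on mouse chromosome 10 at 115450311 to 115587780 on the minus strand (build GRCm38). *Foxl2* was present in the members at 127 and 115 CPM, against 312 and 258 CPM in the *Foxl2*/*Fst*-gated cells, which had been chosen for it. *Fst*, the activin-binding protein follistatin, was at 1157 and 1042 CPM in the members and 1322 and 1107 CPM in the comparison cells. *Kctd14* stood at 1555 and 1409 CPM against 1846 and 1614 CPM. As many as 970 members of control XX 1 (92.7%) and 213 of control XX 2 (89.5%) also met the limit of 300 CPM for *Foxl2* and *Fst* together, so the 2 populations were mostly split by *Lgr5* alone.

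The label of the cells was checked against *Wnt4* and *Rspo1*, the other genes given for them. *Wnt4* was at 549 and 546 CPM in the members and at 571 and 524 CPM in the *Foxl2*/*Fst*-gated cells, and the groups overlapped. *Rspo1* was at 283 and 247 CPM in the members and at 242 and 220 CPM in the comparison cells, which do not overlap but lie close. In the surface epithelium *Wnt4* was 145 and 124 CPM and *Rspo1* 234 and 192 CPM, and stromal cells held 453 and 370 CPM of *Wnt4*. The members thus carried all 3 genes, but of these only *Lgr5*, which the rule used, set them apart from other pre-granulosa cells. Of the surface epithelium's marker list, 6 of 9 genes were higher in the members than in the *Foxl2*/*Fst*-gated cells by the test described further on, in which 9.73% of all genes were called, *Krt8* among them at 213 and 232 CPM, while *Upk3b* was at 1.85 and 1.19 CPM (limited by the rule), *Msln* at 0.365 and 0.217 CPM and *Muc16* at 0.393 and 0.217 CPM. *Dazl* was at 15.3 and 13.8 CPM in the members and 28.6 and 42.1 CPM in the comparison cells, where the rule did not limit it.

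**Figure D1:**
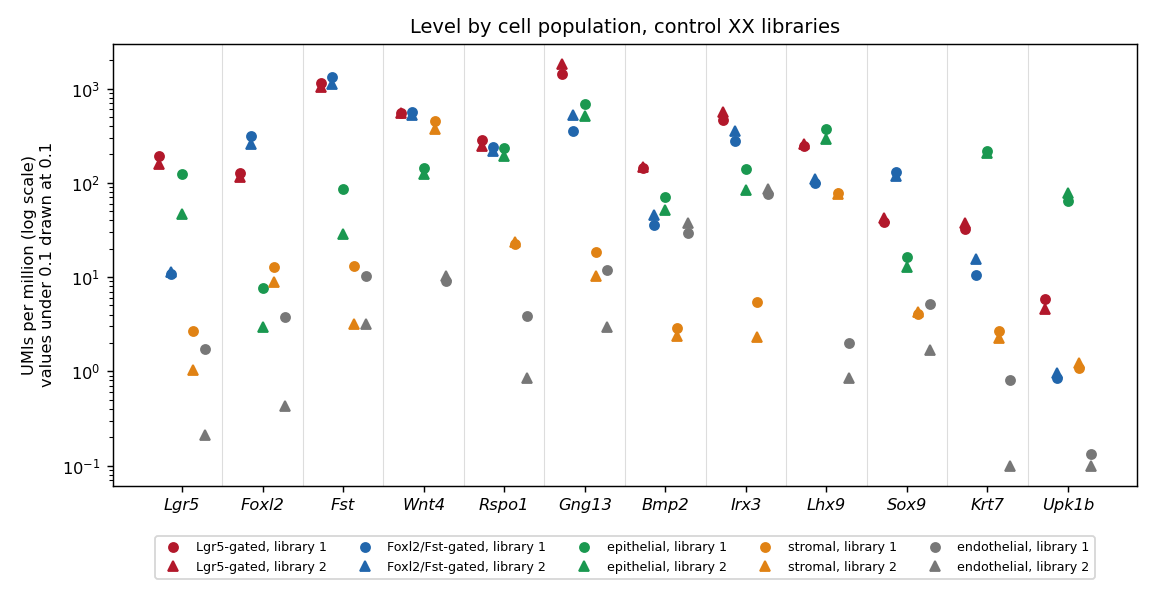
Level of 12 genes (CPM, log axis) in 5 cell populations of the 2 control XX libraries, 1 point per library, with values under 0.1 drawn at 0.1. *Lgr5* reads 194 and 157 CPM in the *Lgr5*-gated cells against 10.9 and 11.2 in the *Foxl2*/*Fst*-gated cells, while *Wnt4* overlaps between these 2 populations.

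Members differed widely among themselves. The median cell held 5 UMIs of *Lgr5* in each library, with an upper quartile of 8 and 7 and a maximum of 35 and 24 UMIs. *Gng13*, a G protein gamma subunit, had a median of 1324 CPM per cell in control XX 1, with 257 CPM at the 10th and 2757 CPM at the 90th percentile of cells. In control XX 2 the median was 1745 CPM and these percentiles were 470 and 3988 CPM. Median *Foxl2* was 83.5 and 67.3 CPM, and at least 1 member in 10 held none of it in either library. *Sox9*, the transcription factor that directs Sertoli cells, was at 0 in the median member, reached 79.0 and 90.3 CPM at the 90th percentile, and had a maximum of 2431 and 633 CPM.

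Cells at the edge of the rule were compared as a description. The members with exactly 3 UMIs of *Lgr5* numbered 216 and 63, and had a median *Lgr5* of 126 and 128 CPM, summed *Gng13* of 1135 and 1501 CPM and summed *Sox9* of 49.3 and 38.5 CPM. Just outside, 251 and 114 cells with 2 UMIs that met the other limits had a median *Lgr5* of 82.2 and 105 CPM, summed *Gng13* of 967 and 1294 CPM and summed *Sox9* of 74.5 and 91.0 CPM. The step across the limit in *Gng13* was smaller than the distance to the *Foxl2*/*Fst*-gated cells, at 359 and 528 CPM. The *Kctd14* limit cut through few cells, with 11 and 4 members between 300 and 400 CPM and 3 and 1 cells between 200 and 300 CPM just outside.

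To ask how *Lgr5*-positive cells differed from other pre-granulosa cells of the same ovary, UMIs were summed over the cells of each population in each library and tested with edgeR's quasi-likelihood test, with the library as a block. Of 14814 genes tested, 689 were higher in the members (4.65% of the genes tested) and 752 were lower (5.08%), 9.73% in all, at a Benjamini-Hochberg adjusted p below 0.05. The change was at least 2-fold for 248 of the higher and 340 of the lower genes, and the median over all genes was -0.0011 on the log2 scale. Both counts fell when 1 library was left out: without control XX 1 they were 145 and 183 genes, without control XX 2 402 and 426. With every cell thinned to one depth they were 188 and 314. The genes named first are the 10 largest rises and 10 largest falls among called genes whose log2 CPM averaged 5 or more over all populations of the fit, a floor that leaves out rarer genes with larger changes. The rule used both libraries, so their passing is no sign of stability. Of these 20 genes *Hsd17b1*, *Amh* and *Dsp* lost their calls with a library left out, and *Thbs1* lost its call without the library block.

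The named genes that rose included a G protein subunit, a signalling ligand, metal-binding proteins and enzymes. *Gng13* (chromosome 17, 25717171 to 25719406, GRCm38) was at 1439 and 1821 CPM in the members against 359 and 528 CPM, which is a change of 1.95 ± 0.18 on the log2 scale (SE, as in the rest of the text; edgeR adjusted p = 4.3e-06). The lowest member library was above the highest comparison library. *Bmp2* (chromosome 2, 133552159 to 133562885), a ligand of the bone morphogenetic protein family, was at 144 and 148 CPM against 35.5 and 45.6 CPM, a change of 1.92 ± 0.21 (edgeR adjusted p = 1.7e-05). *Mt2* stood at 43.4 and 42.7 CPM against 6.81 and 11.5 CPM (2.37 ± 0.31, edgeR adjusted p = 5e-05) and its neighbour *Mt1* at 696 and 796 CPM against 199 and 247 CPM (1.81 ± 0.26, edgeR adjusted p = 0.00013). Both encode metallothioneins, small proteins that bind zinc and copper and are induced by metals and glucocorticoids. *Bace2*, an aspartyl protease, rose by 1.72 on the log2 scale, *Glul*, the glutamine synthetase, by 1.67, and *Cst12*, of the cystatin family of protease inhibitors, by 1.59. *Krt7*, a keratin of simple epithelia, was at 32.4 and 37.8 CPM against 10.6 and 15.48 CPM, a change of 1.52. *Igf1*, the insulin-like growth factor, was at 84.9 and 76.0 CPM against 27.0 and 33.9 CPM and *Clec2l* at 138 and 159 CPM against 49.3 and 60.3 CPM, both with a change of 1.51.

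The 10 named genes that fell had varied known roles, and 5 of them, *Hsd17b1*, *Ddah1*, *Amh*, *Tgfb2* and *Dsp*, were below the floor of the naming rule (a mean log2 CPM of 5) in both populations and met it only through other populations of the fit. *Ddah1*, an enzyme that breaks down methylated arginine, was at 5.11 and 5.52 CPM in the members against 31.1 and 26.0 CPM, a change of -2.39 ± 0.20. *Tgfb2*, a ligand of the TGF-β family, was at 6.04 and 5.52 CPM against 28.4 and 25.7 CPM, a change of -2.10 ± 0.20. *Thbs1*, a matrix glycoprotein, was at 30.2 and 46.0 CPM against 175 and 143 CPM, and *Ptgds*, the prostaglandin D synthase known from Sertoli cells, was at 13.8 and 12.9 CPM against 58.0 and 42.9 CPM (-1.86 ± 0.31). For each of these genes both member libraries lay below both comparison libraries. *Shtn1* changed by -2.12, *Etl4* by -1.83 and *Plk2*, a protein kinase, by -1.83. *Hsd17b1*, an enzyme of estradiol synthesis, was at 0.281 and 0.866 CPM against 3.09 and 4.19 CPM (-2.91 ± 0.53, edgeR adjusted p = 0.0016), and lost its call without control XX 1 (-2.21, edgeR adjusted p = 0.23). *Dsp*, desmoplakin of cell junctions, was called at -1.84 and lost its call without control XX 1 (-1.78, edgeR adjusted p = 0.13). *Amh*, the anti-Müllerian hormone, was at 0.421 and 0.433 CPM against 2.31 and 1.88 CPM (-2.26 ± 0.69, edgeR adjusted p = 0.043), and was lost without either library (adjusted p = 0.68 without control XX 1 and 0.095 without control XX 2). In the control XY cells within the *Lgr5* limits *Amh* was at 2963 and 2354 CPM.

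**Figure D2:**
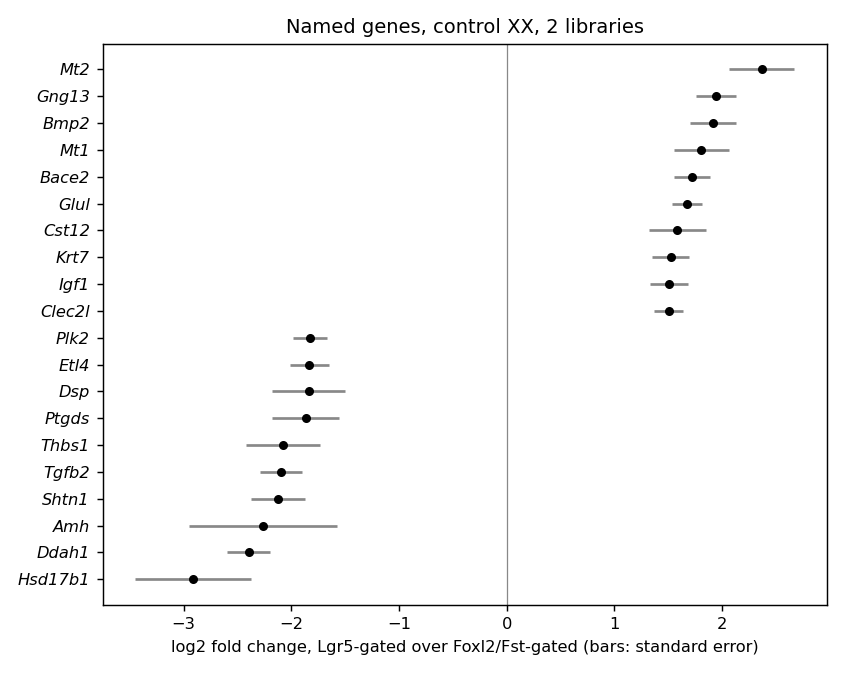
Log2 fold change of the 20 named genes, *Lgr5*-gated against *Foxl2*/*Fst*-gated control XX cells, with bars of 1 standard error from edgeR. *Mt2* (2.37) and *Gng13* (1.95) lead the higher genes, and *Hsd17b1* (-2.91) and *Amh* (-2.26) have the widest bars.

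RefSeq promoter windows (GRCm38.p6) were found for 14 of the 20 named genes, in 17 windows of the 250 bases before a transcription start. The 2 metallothionein windows are shown because *Mt1* and *Mt2* lie side by side on chromosome 8 and both rose. Capitals mark the core of the metal response element, searched as TGCACNC or TGCGCNC on both strands, with a match on the other strand printed as it reads on this one. *Mt2* (plus strand, chr8:94172368-94172617) holds 3 matches, which begin 223, 128 and 50 bases before the start, and *Mt1* (plus strand, chr8:94178839-94179088) holds 1, which begins 23 bases before it.
Mt2: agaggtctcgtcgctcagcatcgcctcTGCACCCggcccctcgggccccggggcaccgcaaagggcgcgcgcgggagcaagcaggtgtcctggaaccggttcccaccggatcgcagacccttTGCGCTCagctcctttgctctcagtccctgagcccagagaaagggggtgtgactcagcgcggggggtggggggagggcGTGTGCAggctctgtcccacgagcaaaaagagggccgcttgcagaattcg
Mt1: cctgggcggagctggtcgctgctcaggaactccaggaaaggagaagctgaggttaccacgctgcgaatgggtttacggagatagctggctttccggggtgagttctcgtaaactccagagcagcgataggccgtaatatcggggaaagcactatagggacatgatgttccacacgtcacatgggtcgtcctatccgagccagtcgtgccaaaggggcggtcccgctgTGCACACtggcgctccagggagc
Of 32851 such windows in the mouse genome, 21.4% hold at least 1 match and 1.26% hold at least 3, and of the 17 windows of the named genes 8 hold at least 1. The motif CTTTGAT of TCF/LEF factors, the DNA-binding partners of β-catenin, is in 0 of the 17 windows and in 3.21% of all windows, and the forkhead motif TGTTTAC is in 1 of 17 and 3.17% of all. AAGGTCA, read by NR5A1, and AGATAA, read by GATA factors, are in 0 of 17, and in 4.08% and 9.99% of all windows. These matches describe letters in a short window and not binding.

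Because LGR5 acts in WNT signalling, the pathway's genes were listed by role, and counts are to be read against 9.73% of all genes called (4.65% higher and 5.08% lower). None of 5 WNT ligands passed the test in either direction (median change 0.17, against -0.0011 over all genes). *Wnt4* changed by 0.07 (edgeR adjusted p = 0.92), and *Wnt4* turned to -0.11 with cells thinned to one depth and to -0.07 with *Lgr5* limited by CPM. *Wnt6*, the most abundant of these ligands, was at 817 and 741 CPM in the members and 755 and 750 CPM in the comparison cells. Of the R-spondins 2 of 4 could be tested and none was called, with *Rspo1* at a change of 0.26 (edgeR adjusted p = 0.37). Among 14 receptors and co-receptors none was higher and 3 were lower (median -0.06). *Lgr4*, the close relative of *Lgr5* and likewise an R-spondin receptor, was at 116 and 124 CPM in the members against 174 and 172 CPM, a change of -0.47 (edgeR adjusted p = 0.018). The receptors *Fzd3* and *Fzd7* changed by -0.53 and -0.89. Of 8 tested genes for ligand turnover and antagonists 3 were lower and none higher (median -0.11), and these were secreted antagonists of WNT: *Dkk3* (-1.80), *Sfrp1* (-0.91) and *Notum* (-1.64). The ligases *Znrf3*, at 13.1 and 10.4 CPM against 16.5 and 12.6 CPM, and *Rnf43*, at 22.5 and 20.4 CPM against 23.9 and 20.03 CPM, were not called.

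Of 12 nuclear factors and targets of the pathway 3 were higher and 1 lower (median 0.16). *Lef1*, a DNA-binding partner of β-catenin and itself a WNT target, was at 47.7 and 43.5 CPM in the members against 29.0 and 26.6 CPM, a change of 0.78 (edgeR adjusted p = 0.0021). Its relative *Tcf7* changed by 0.51 (edgeR adjusted p = 0.03) and *Tcf7l2* by -0.45 (0.033). *Myc* was at 15.4 and 27.0 CPM against 6.03 and 16.5 CPM, a change of 1.09 (edgeR adjusted p = 0.0007), and its groups overlapped. *Axin2*, the widely used target of β-catenin signalling, was at 87.9 and 72.6 CPM against 84.2 and 65.8 CPM, a change of 0.16 that was not called (edgeR adjusted p = 0.46). Of the 10 WNT pathway genes that were called, none kept its call with each of the control XX libraries left out in turn. The 3 of them with a higher level were *Lef1*, *Tcf7* and *Myc*. Without control XX 1, for example, *Lef1* stood at 0.76 with edgeR's adjusted p = 0.076, and *Lgr4* at -0.42 with 0.38.

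Genes known from granulosa cells were mixed. Of 11 tested, 4 were higher and 2 lower (median 0.32, against -0.0011 over all genes, of which 4.65% were called higher and 5.08% lower). The higher ones were *Gng13* and *Bmp2* (above), the Iroquois transcription factor *Irx5* (1.07) and the nuclear receptor *Nr0b1* (0.76), of which *Gng13* and *Bmp2* kept their calls with either library left out. *Irx3*, of the same family as *Irx5*, changed by 0.75 (edgeR adjusted p = 0.059). *Runx1* (-0.17), *Kitl*, the ligand of the germ cell receptor KIT (0.10), and the cell cycle inhibitor *Cdkn1b* (-0.18) were not called. The lower ones were near the floor in the members: *Esr2*, the estrogen receptor β, had 4 and 1 UMIs over all members (0.112 and 0.108 CPM) against 74 and 17 UMIs in the comparison cells, and the nuclear receptor *Nr5a2* had 23 and 2 UMIs (0.646 and 0.217 CPM) against 177 and 34. Both lost their calls without control XX 1 (edgeR adjusted p = 0.48 and 0.14), as did *Irx5* and *Nr0b1*. Summed over the 7 markers fixed for granulosa cells, the members held 3094 and 3563 CPM and the comparison cells 1765 and 1890 CPM, of which *Gng13* alone gave 1439 and 1821 CPM in the members and 359 and 528 CPM in the comparison cells, most of the gap.

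The counts of the next 6 lists are to be read against 4.65% of all genes called higher and 5.08% lower, and several lie near these shares. Of 10 tested transcription factors of the early gonad, *Lhx9*, a LIM homeobox gene that the bipotential gonad needs, was higher, at 246 and 256 CPM against 101 and 110 CPM (1.31, edgeR adjusted p = 1.8e-05). *Zfpm2*, the GATA cofactor FOG2, was lower (-0.63), as was the nuclear receptor *Nr2f1* (-1.39), and of these 3 *Lhx9* and *Zfpm2* kept their calls without either library. *Zfpm2* lost its call without the library block and with the control XX libraries alone in the fit (edgeR adjusted p = 0.053 and 0.058). In the BMP list 1 of 17 was higher, the ligand *Bmp7* (0.70), and 2 lower, the ligand *Bmp4* (-2.31) and the receptor *Bmpr1b* (-1.10), of which *Bmp4* kept its call without either library but not with thinned cells (-1.85, edgeR adjusted p = 0.19). *Notch1* (-1.69) and *Nrarp*, a target of Notch, were lower among 11 tested Notch genes, but *Notch1* lost its call without control XX 1 (-1.24, edgeR adjusted p = 0.22) and *Nrarp* without either library. Of 10 retinoid genes *Crabp1*, which binds retinoic acid in the cytoplasm, was lower (-1.98) and kept its call without either library. Cell cycle genes were nearly level, with 1 of 17 higher (*Mcm3*, 0.57) and 1 lower, *Bub1* (-0.89), which turned to 0.08 when the comparison cells were held to the same *Dazl*, *Upk3b* and *Kctd14* limits, a setting chosen after seeing the data. Neither kept its call with each library left out in turn. *Cdkn1c*, an inhibitor of cyclin-dependent kinases, was the only called gene among 4 such inhibitors, at 2063 and 2213 CPM against 1332 and 1441 CPM (0.69, edgeR adjusted p = 0.013), and it missed the threshold without either library (0.19 and 0.091).

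Some markers of Sertoli cells were lower in the members. Of 13, none was higher and 5 were lower, with a median of -1.24 against -0.0011 over all genes, of which 5.08% were called lower. *Sox9* was at 38.2 and 42.7 CPM in the members against 131 and 118 CPM in the comparison cells (-1.56, edgeR adjusted p = 0.00056), and *Aard* was at 102 and 115 CPM against 261 and 273 CPM (-1.24, edgeR adjusted p = 0.0068). The remaining 3 were *Amh*, *Ptgds* and *Hsd17b1*. Of the 5 only *Ptgds* kept its call with each library left out in turn. Without control XX 1, *Sox9* stood at -1.42 with edgeR's adjusted p = 0.061. The sum of the 13 markers was 192 and 218 CPM in the members and 501 and 490 CPM in the comparison cells, so the groups did not overlap.

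Some surface epithelial markers moved the other way. Of 9 tested, 6 were higher and none lower (median 0.89, with 4.65% of all genes called higher), although the rule had capped *Upk3b* in the members and not in the comparison cells. They were the keratins *Krt7*, *Krt8* (213 and 232 CPM against 109 and 141 CPM, 0.89), *Krt18* (0.65) and *Krt19* (1.01), and *Upk1b* (5.79 and 4.55 CPM against 0.858 and 0.971 CPM, 2.65) and *Lrrn4* (1.65). Of the 6 only *Krt7* and *Upk1b* kept their calls without either library, but *Upk1b* lost its call with cells thinned to 10000 UMIs (1.42, edgeR adjusted p = 0.076). The summed epithelial markers were 470 and 548 CPM in the members, 261 and 337 CPM in the comparison cells and 1868 and 1707 CPM in the gated epithelial cells, whose gate used *Krt7* and *Krt19*. *Msln*, *Muc16* and *Gpm6a* were not called, and the first 2 stayed below 1 CPM in the members. Whether epithelial RNA from other cells had a part in this was not tested.

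For the remaining cell types too the shares over all genes were 4.65% higher and 5.08% lower. Stromal markers included 2 lower and no higher genes among 9, *Col3a1*, a fibrillar collagen (139 and 139 CPM against 535 and 448 CPM, -1.76), and *Mfap4* (-0.97), and their sum was 280 and 378 CPM against 748 and 951 CPM. *Pax8*, a transcription factor of the mesonephric tubules and the only called gene of 3 tested there, was lower, at 1.46 and 2.17 CPM against 12.1 and 11.7 CPM (-2.71). *Ddx4*, *Sycp3* and *Smc1b*, genes of germ cells, were lower among 8: *Ddx4* (-0.98), *Sycp3* (-0.98) and *Smc1b* (-0.89) turned to 0.02, 0.07 and 0.22 when the comparison cells were held to the same limits, which was chosen after seeing the data. *Kdr* (1.64), of the endothelial list, and *Cspg4* (0.77), of the pericyte list, were higher, 1 gene in each, and *Kdr* lost its call without control XX 1 (1.19, edgeR adjusted p = 0.17) and *Cspg4* without either library, as did *Mfap4*. Immune, erythroid and Leydig lists had no call in this comparison. Erythroid RNA differed between the member libraries, at 438 and 1739 CPM summed, against 596 and 640 CPM in the comparison cells. The part of RNA from these other cell types in the results above was not tested.

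**Figure D3:**
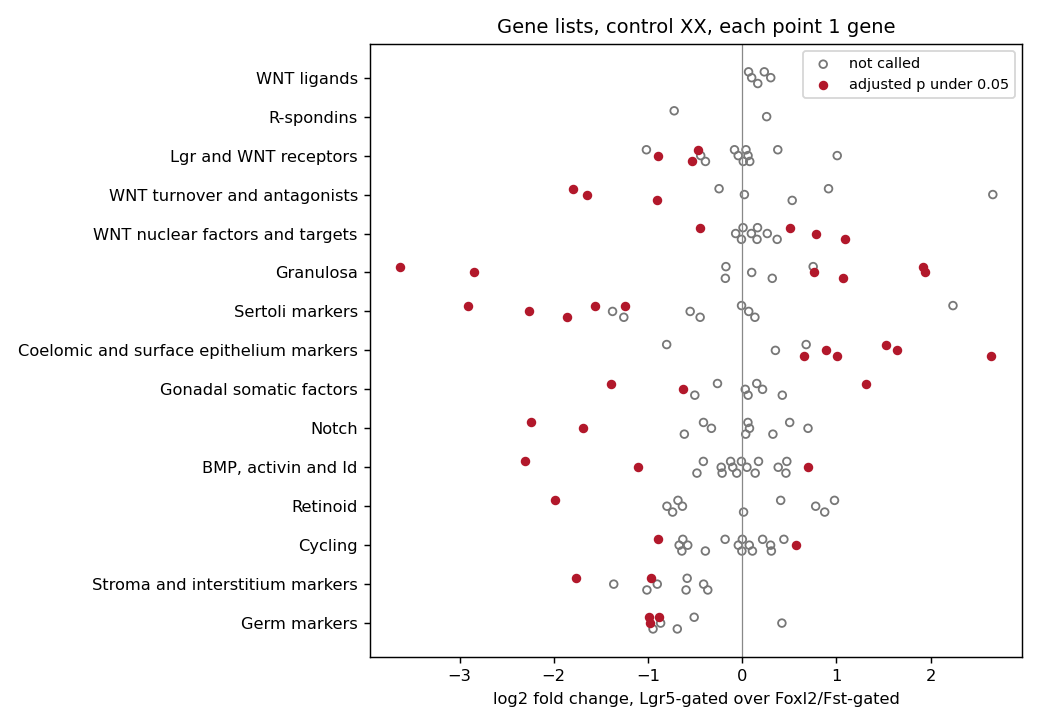
Log2 fold change of each tested gene in 15 lists, *Lgr5*-gated against *Foxl2*/*Fst*-gated control XX cells, 1 point per gene and called genes marked. Points of the Sertoli list lie mostly below 0 (median -1.24) and those of the epithelial list mostly above (median 0.89), while the WNT receptors centre near 0 (median -0.06).

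How these genes followed *Lgr5* was described after each *Kctd14*-positive cell had been thinned to 10000 UMIs and sorted by its UMIs of *Lgr5*. The *Dazl* and *Upk3b* limits were kept. The bins also took in *Kctd14*-positive cells of neither gate. Summed stromal markers of those cells were 2171 and 3440 CPM, against 280 and 378 CPM in the members. The part of a change in cell mix between bins was not tested. The 4 bins, with 0, 1, 2 and 3 or more UMIs of *Lgr5*, held 1707, 562, 308 and 340 cells in control XX 1 and 852, 189, 100 and 61 in control XX 2. Mean *Gng13* went from 419 to 1094, 1419 and 1584 CPM in control XX 1, and from 457 to 1485, 1851 and 2336 CPM in control XX 2. *Bmp2* went from 40.6 to 100, 157 and 175 CPM and from 40.6 to 111, 128 and 192 CPM, and *Lhx9* from 108 to 200, 229 and 271 CPM and from 98.6 to 203, 252 and 284 CPM. All 3 genes stepped up in every bin of both libraries, and for each of them the widest step was that from 0 to 1 UMI of *Lgr5*.

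*Sox9* ran the other way, at 111, 60.7, 45.5 and 16.5 CPM in control XX 1 and 79.7, 57.7, 29.0 and 24.6 CPM in control XX 2. *Foxl2* went down too, from 267 to 190, 125 and 110 CPM and from 178 to 138, 116 and 75.4 CPM. *Wnt4* had no such order, at 539, 583, 529 and 513 CPM and 456, 549, 518 and 466 CPM. *Fst* was at 1122, 1303, 1167 and 1157 CPM and at 735, 1033, 1027 and 1066 CPM, and *Rspo1* at 227, 279, 280 and 276 CPM and at 180, 235, 243 and 282 CPM. The levels of *Gng13* and *Sox9* were thus graded with *Lgr5*, and that of *Wnt4* was not. Cells of a bin come from a single library, so these values are a description with no test.

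**Figure D4:**
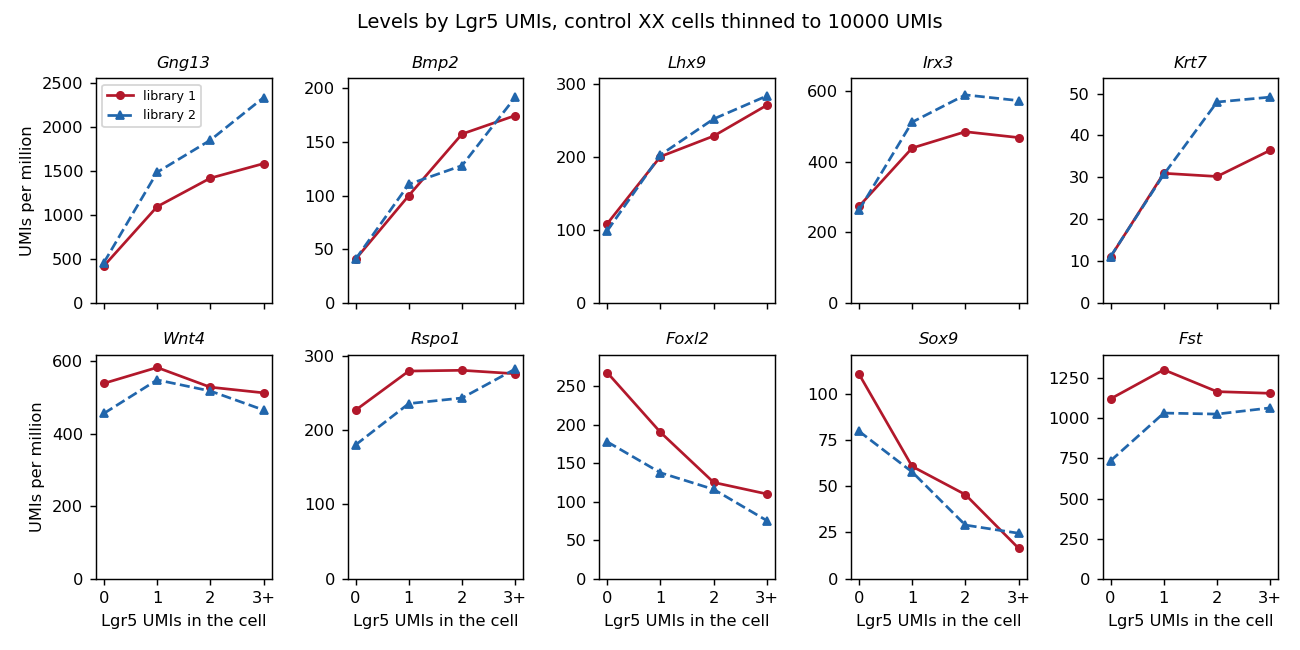
Mean level of 10 genes (CPM) in *Kctd14*-positive control XX cells thinned to 10000 UMIs, by the number of *Lgr5* UMIs per cell, 1 line per library. *Gng13* climbs from 419 to 1584 CPM in control XX 1 and from 457 to 2336 CPM in control XX 2, while *Sox9* goes down to 16.5 and 24.6 CPM.

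At the same depth of 10000 UMIs, *Gng13* was seen in 96.8% and 98.7% of members, in 60.6% and 72.0% of *Foxl2*/*Fst*-gated cells, and in 14.8% and 3.03% of endothelial cells, taken here as cells that should lack it. *Sox9* was seen in 13.4% and 17.9% of members, 39.0% and 35.6% of *Foxl2*/*Fst*-gated cells and 4.37% and 3.03% of endothelial cells. Members thus lay above the endothelial share for both genes. The endothelial cells were gated to hold under 100 CPM of *Kctd14*, which leaves out those with more RNA of the supporting lineage. Here the populations were those gated before thinning. The thinning left out 23 and 9 members, 153 and 167 comparison cells and 5 and 12 endothelial cells as too shallow. Without it the *Sox9* shares were 26.7% and 37.8%, 49.7% and 45.1%, and 12.2% and 4.50%, and those of *Gng13* 99.0% and 99.2%, 73.5% and 79.8%, and 33.5% and 9.91%, with a median of 34030 and 31935 UMIs in endothelial cells. For *Bmp2* the thinned shares were 60.3% and 64.6% of members and 20.8% and 28.2% of *Foxl2*/*Fst*-gated cells, the latter close to the 19.1% and 27.3% of endothelial cells. Cells with at least 2 UMIs of *Mki67* and *Top2a*, genes of dividing cells, made up 4.20% and 5.24% of members at this depth, 4.80% and 10.2% of *Foxl2*/*Fst*-gated cells and 27.3% and 41.7% of surface epithelial cells.

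Since the surface epithelium also held *Lgr5*, the members were compared with the 153 and 87 gated epithelial cells of the same libraries. Of 14812 genes tested, 3373 were higher in the members (22.8%) and 3181 lower (21.5%), 44.2% in all by edgeR's quasi-likelihood test. These counts fell to 1825 to 1946 and 1970 to 2285 with 1 library left out and to 1422 and 1782 with thinned cells. *Hsd3b1*, an enzyme of steroid synthesis, was at 85.7 and 68.2 CPM in the members and 2.09 and 0.803 CPM in the epithelial cells (5.53). *Gatm*, of creatine synthesis, was at 318 and 383 CPM against 15.3 and 7.23 CPM (4.76), and *Wfdc10* at 105 and 92.5 CPM against 3.29 and 1.34 CPM (5.22). The hemoglobin genes *Hbb-bs* (5.24) and *Hbb-bt* (4.89) were also among the 5 rises named by the rule, and both missed the threshold without control XX 2 (3.63 with edgeR's adjusted p = 0.076 and 3.29 with 0.12), the library whose members held more erythroid RNA. Lower in the members were S100a6 (1.57 and 4.44 CPM against 199 and 904 CPM, -7.50), *Tmem108* (-7.29), *Tm4sf5* (4.27 and 3.68 CPM against 246 and 292 CPM, -6.10), the matrix protein gene *Fbln2* (-5.62) and the actin-binding protein gene *Tagln* (-5.41).

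*Wnt4* was at 549 and 546 CPM in the members against 145 and 124 CPM in the epithelial cells (1.92), and *Gng13* was also higher (1.33, with 681 and 516 CPM in the epithelial cells). *Rspo3*, an R-spondin, was at 10.5 and 54.3 CPM in the epithelial cells and at 0.169 and 0.108 CPM in the members (-7.07). The list counts that follow are to be read against 22.8% of all genes called higher and 21.5% called lower. All 7 epithelial markers that could be tested were lower, *Upk1b* by -3.81 and *Krt8* by -0.82, the latter losing its call without control XX 1 (-0.53, edgeR adjusted p = 0.083). *Aldh1a2*, which makes retinoic acid, changed by -1.49. All 17 cell cycle genes were lower, with *Mki67* at 11.3 and 10.2 CPM against 79.3 and 130 CPM (-3.31), and 5 of the 7 granulosa markers were higher. Of 10 tested transcription factors of the early gonad 7 were lower in the members and 2 higher (median -0.63). *Lhx9*, higher in the members than in the *Foxl2*/*Fst*-gated cells, was among the 7 lower here. *Krt7* and *Krt19*, part of the epithelial gate, were not tested here. Lower levels of the other epithelial markers were favoured by the gates, since *Upk3b* also defined the epithelial cells and was capped in the members. Other cell types' markers differed too: 8 of 9 stromal markers were lower in the members (median -2.73), with sums of 280 and 378 CPM against 1837 and 5252 CPM, and 3 of 5 pericyte markers were lower. Germ cell markers were higher for 7 of 8 (median 2.56, sums of 135 and 156 CPM against 40.7 and 16.6 CPM), as were all 5 erythroid markers. The part of RNA from those cells in this comparison was not tested.

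The same limits on *Lgr5*, *Kctd14*, *Dazl* and *Upk3b* were applied to the XY gonads. They found 11 and 29 cells in control XY (0.161% and 0.338% of cells) and 250 and 229 in dKO XY (3.07% and 4.02%). Most of these cells lacked *Foxl2* and *Fst* at the level of the ovarian members. Only 23 (9.2%) and 22 (9.61%) of the dKO XY cells and 0 in control XY had at least 300 CPM of *Foxl2* and *Fst* together. The summed Sertoli markers were 7629 and 5875 CPM in these dKO XY cells and 9712 and 8182 CPM in control XY, against 192 and 218 CPM in the ovarian members. This list includes *Amh*, which is deleted in dKO XY and high in control XY (below). The gap between the sums of the XY genotypes is therefore not a measure of the other Sertoli markers. The summed granulosa markers were 647 and 598 CPM in dKO XY and 260 and 237 CPM in control XY, against 3094 and 3563 CPM. The plot of marker sums shows no overlap between the ovarian members and either XY genotype.

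**Figure D5:**
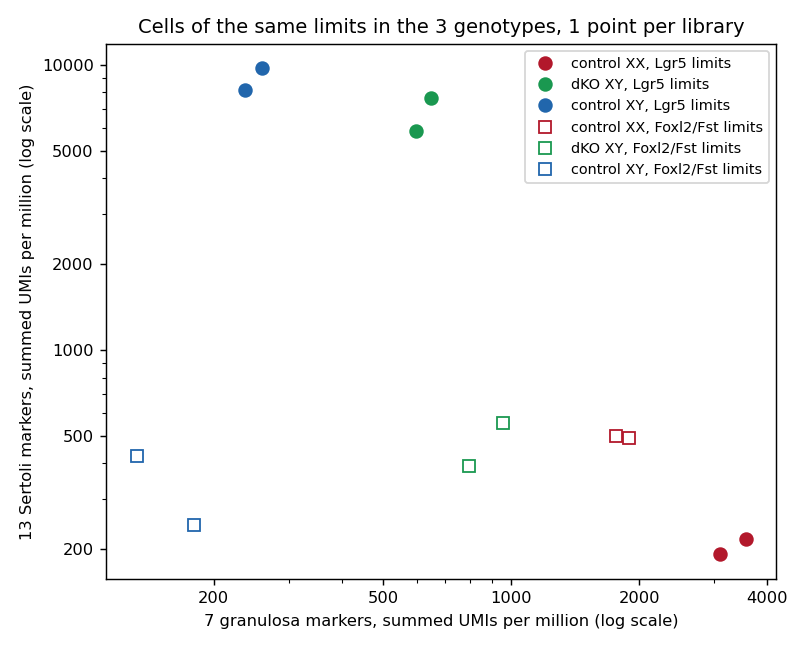
Summed level (CPM, log axes) of 13 Sertoli markers against 7 granulosa markers in the *Lgr5*-gated and the *Foxl2*/*Fst*-gated cells, 1 point per library and genotype. The Sertoli list includes *Amh*, which is deleted in dKO XY. Cells within the *Lgr5* limits sit at 192 and 218 CPM of Sertoli markers in control XX and at 7629 and 5875 CPM in dKO XY, whereas *Foxl2*/*Fst*-gated cells of dKO XY sit at 553 and 392 CPM.

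Between the dKO XY and the control XX cells within these limits, 13833 genes were tested, and 3060 were higher (22.1%) and 3246 lower (23.5%) in dKO XY, 45.6% in all. With cells thinned to 10000 UMIs these counts were 804 and 668. The dKO XY cells differ from the ovarian members in sex chromosomes and in genotype at once, and this contrast cannot tell them apart. The control XY cells within these limits, which are XY with both genes intact, number 11 and 29. Their marker sums, given above, cannot separate sex chromosomes from genotype either, since these cells come from testes and carry Sertoli markers. The Y-linked *Eif2s3y* was at 96.7 and 79.6 CPM in dKO XY and *Ddx3y* at 82.3 and 69.1 CPM, and both were at 0 in the ovarian members, where 3 UMIs would give 0.0843 and 0.325 CPM. *Xist* was at 0.104 and 0.195 CPM in dKO XY against 1620 and 1350 CPM. All 13 Sertoli markers were higher in dKO XY. *Sox9* was at 484 and 412 CPM (3.45), *Dhh*, the desert hedgehog ligand, at 195 and 156 CPM against 0.478 and 1.08 CPM (8.09), and *Ptgds* changed by 6.79. *Cst9*, a cystatin of Sertoli cells, was at 2326 and 1841 CPM against 2.70 and 2.60 CPM (9.58), and the other genes of largest rise by the rule, *Etd* and *Nt5e*, were at 226 and 205 CPM and 73.9 and 55.4 CPM, with at most 0.108 CPM in the members.

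*Amh*, deleted in these animals, was at 20.5 and 19.0 CPM in the dKO XY cells, against 2963 and 2354 CPM in the control XY cells and 0.421 and 0.433 CPM in the ovarian members. *Inhbb*, the other deleted gene, was at 48.9 and 51.1 CPM in dKO XY, against 257 and 201 CPM in control XY and 32.7 and 22.8 CPM in the members. Both were thus lower in dKO XY than in control XY cells but not at 0. The list counts that follow are to be read against 22.1% of all genes called higher in dKO XY and 23.5% called lower. Of the 7 granulosa markers 6 were lower in dKO XY and *Nr0b1* was higher (0.75). *Gng13* was at 106 and 100 CPM (-3.996), and *Bmp2* changed by -2.78, *Irx3* by -3.85, *Irx5* by -4.55, *Runx1* by -0.84 and *Kitl* by -1.37. *Foxl2* was at 11.3 and 25.4 CPM in the dKO XY cells, against 127 and 115 CPM in the members, and *Fst* at 65.6 and 56.5 CPM against 1157 and 1042 CPM. In the WNT pathway *Wnt4* was at 101 and 109 CPM (-2.40) and *Rspo1* at 48.3 and 67.8 CPM (-2.20), with *Axin2* at -1.58 and *Lgr4* at -0.81. *Lgr4* lost its call with thinned cells, at -0.50 with edgeR's adjusted p = 0.13. *Lgr5* itself, fixed by the rule, was at 121 and 121 CPM. The pathway lists were mixed: 1 of 5 ligands was higher (*Wnt6*) and 3 lower. Of 12 tested receptors and co-receptors 6 were higher and 2 lower (median 0.59). Genes for turnover and antagonists had 2 higher and 2 lower of 6 tested, and nuclear factors and targets 3 higher and 5 lower of 12. Of 17 cell cycle genes 16 were higher in dKO XY, with *Mki67* at 125 and 170 CPM (3.75), while *Cdkn1c* fell by 2.55 on the log2 scale, and 41.3% and 47.3% of the thinned dKO XY cells passed the limit for dividing cells against 4.20% and 5.24% of members. The genes that fell by the same rule were *Calb1*, a calcium-binding protein gene, at 5.33 and 0.974 CPM against 97.1 and 196 CPM (-5.57), *Lbx2* (-4.85), *Thbs2* (-4.76) and *Svs5* (-4.71), beside *Xist*. All 5 epithelial markers tested were lower. Markers of further cell types were higher in the dKO XY cells: 4 of 5 Leydig markers (median 3.28, summed 178 and 366 CPM against 103 and 86.7 CPM), 3 of 3 tested immune markers (3.85, summed 4.28 and 42.1 CPM against 1.24 and 0.758 CPM) and 3 of 5 pericyte markers (1.77, summed 97.5 and 59.1 CPM against 16.6 and 25.1 CPM). Germ cell markers were mixed, with 2 of 8 higher and 3 lower, not far from the shares over all genes. The part of RNA from those cells in the comparison was not tested.

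To ask whether the contrast between *Lgr5*-positive and *Foxl2*/*Fst*-positive cells was the same in dKO XY as in control XX, both contrasts were fitted together, on sums that include the ovarian members described above. Within dKO XY 1993 genes were higher in the *Lgr5*-gated cells (13.5% of 14814) and 2275 lower (15.4%), 28.8% in all. With cells thinned to 10000 UMIs these counts were 694 and 632. The difference between the 2 contrasts was called for 1750 genes in one direction and 1480 in the other (21.8% in all). Of the 10 named genes that rose in the ovary none was called in the same direction in dKO XY, 3 were called in the other direction (*Gng13*, *Bmp2* and *Igf1*), and 7 were not called. Of the 10 named genes that fell 2 were called in the same direction (*Tgfb2* and *Thbs1*) and 5 in the other. These 20 genes were chosen in the control XX sums that the difference reuses, so no count of differences over them is given. In dKO XY *Gng13* was at 106 and 100 CPM in the *Lgr5*-gated against 292 and 215 CPM in the *Foxl2*/*Fst*-gated cells (-1.36), *Bmp2* changed by -0.93 and *Lhx9* by -1.71. *Bmp2* missed the threshold in 5 settings: without dKO XY 1 (-0.64, edgeR adjusted p = 0.35), with at least 5 UMIs of *Lgr5* (-0.58), with *Lgr5* limited by CPM (-0.28), with thinned cells (-0.26) and with *Dazl* under 2 UMIs (-0.74). *Lhx9* missed it with thinned cells (-0.69, edgeR adjusted p = 0.11). *Sox9* was at 484 and 412 CPM against 126 and 52.2 CPM (2.31), *Ptgds* changed by 3.996, *Wnt4* was at 101 and 109 CPM against 371 and 418 CPM (-2.00) and *Rspo1* at 48.3 and 67.8 CPM against 349 and 313 CPM (-2.60).

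Because most dKO XY cells within the *Lgr5* limits carried Sertoli markers, the contrast was repeated, after seeing the data, with members of each genotype limited to those that also had at least 300 CPM of *Foxl2* and *Fst*, which left 23 and 22 dKO XY cells. Now 12 genes were higher and 20 lower of 14456 (0.221% in all), and 1353 had an unadjusted p below 0.05. *Gng13* was at 858 and 537 CPM in these cells, a change of 1.41 ± 0.19 (edgeR adjusted p = 0.0023), and *Bmp2* at 155 and 109 CPM, a change of 1.73 ± 0.30 (edgeR adjusted p = 0.018). Of the 10 named genes that rose in the ovary, 9 had the same sign in these dKO XY cells and 4 were called (*Gng13*, *Bmp2*, *Bace2* and *Clec2l*), while *Glul* had the other sign. Of the 10 named genes that fell, 7 had the same sign and none was called, and *Amh*, *Shtn1* and *Ptgds* had the other sign. *Lhx9* was at 264 and 170 CPM (0.75, edgeR adjusted p = 0.147), *Sox9* at 117 and 79.8 CPM (0.16, 0.92), *Ptgds* changed by 0.78 (0.47), *Wnt4* was at 492 and 368 CPM (0.08, 0.95) and *Rspo1* at 288 and 273 CPM (-0.27, 0.59). In this setting the difference between the genotypes was called by edgeR for 0 genes in one direction and for 1, *Pappa*, in the other (0.00692% in all), with 947 genes at an unadjusted p below 0.05. The difference was 0.46 for *Gng13* (edgeR adjusted p = 0.78) and -1.65 for *Sox9* (0.25), and for *Ptgds* it was -2.54, which just missed the threshold (0.0503). These sums rest on few cells, and a missed threshold here does not show that the genotypes are alike.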

How the data were processed

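Single cells of E15.5 gonads were sequenced on the 10x Genomics platform, and the authors deposited UMI counts per gene and cell (Cell Ranger, build mm10, corrected for swapped barcodes; Seurat 4.0 is named in the submitters' processing notes), with no normalization. A cell was kept with over 2500 but under 9000 genes, under 25% mitochondrial and under 20% beta-globin UMIs. Doublets were not removed: Scrublet (scanpy 1.11.5) marked 79 and 2 control XX cells by its automatic threshold, so the alternative leaves out the 8% of each library with the highest scores. UMIs were summed per library and gated population of at least 10 cells and fitted together in edgeR 4.0.16 (R 4.3.3; filterByExpr, TMM, quasi-likelihood, Benjamini-Hochberg, threshold 0.05). Populations of 1 library come from the same animal, so the library was a block within genotypes. Named genes were the 10 largest rises and falls past the threshold whose mean log2 CPM over all populations and genotypes in the fit was 5 or more (so a gene low in both compared populations can pass through another group) and that moved the same way in each library (5 and 5 for the epithelium and dKO XY) and the members of the fixed lists. The cells and the lists were chosen with earlier results of these data known. Intervals cover counting error only. Coordinates are GENCODE M21, and 233 of 233 genes were found. Alternatives included DESeq2 1.42.0, other *Lgr5* limits, thinning to 10000 UMIs and leaving out each library.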

Additional observations from a re-analysis of the deposited data

Results flagged for a closer look

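The contrast between *Lgr5*-gated and *Foxl2*/*Fst*-gated cells was followed in control XX and dKO XY for 7 genes, and each differed by a test of the difference itself (edgeR's quasi-likelihood interaction term, Benjamini-Hochberg adjusted over all genes), which was called for 21.8% of all genes tested. The difference, control XX minus dKO XY on the log2 scale, was 3.31 for *Gng13*, 2.85 for *Bmp2*, 3.02 for *Lhx9*, 2.07 for *Wnt4* and 2.86 for *Rspo1*, and it was -3.87 for *Sox9* and -5.86 for *Ptgds*. *Gng13*, *Bmp2* and *Ptgds* had been chosen for their change in control XX, whose sums this difference reuses, so a difference was favoured for these 3 genes. *Lhx9* and *Sox9* had also been called in those sums. In dKO XY the gates set cells that mostly lacked *Foxl2* and *Fst* at that level against cells chosen for them. The other differences were thus not independent of the gates either. With the members of both genotypes limited to cells with at least 300 CPM of *Foxl2* and *Fst*, a setting chosen after seeing the data, none of the 7 differences was called. They were then 0.46 for *Gng13*, 0.087 for *Bmp2*, 0.50 for *Lhx9*, 0.0045 for *Wnt4*, 0.52 for *Rspo1*, -1.65 for *Sox9* and -2.54 for *Ptgds*, the last with edgeR's adjusted p = 0.0503, close to the threshold. That setting kept 92.7% and 89.5% of the control XX members and 9.2% and 9.61% of the dKO XY cells.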

How the results depend on the processing

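The members of control XX 2 were fewer, the *Lgr5* limit selects deeper cells, and with 2 libraries a fit without 1 of them assumes that the lone library varies like the other groups. Leaving out a library gave 145 to 402 higher and 183 to 426 lower genes against the *Foxl2*/*Fst*-gated cells, 1825 to 1946 and 1970 to 2285 against the epithelium, 2471 to 2840 and 2316 to 2501 between genotypes, 994 to 1146 and 886 to 1111 within dKO XY, and 764 to 1297 and 813 to 1090 for the difference. With cells thinned to 10000 UMIs and the limits applied again, which changes the choice of cells as well as the depth, the members numbered 429. The counts were then 188 and 314, 1422 and 1782, 804 and 668, and 694 and 632. With at least 5 UMIs of *Lgr5* there were 781 members. Averaging CPM over cells gave 203 CPM of *Lgr5* and 528 CPM of *Wnt4* in place of 175 and 548.

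Populations of 1 library share an animal, and without that replicate block the counts were 262 and 309 against the *Foxl2*/*Fst*-gated cells and 1511 lower genes within dKO XY. Between genotypes the replicate numbers pair nothing by the labels (r = -0.15 over 13593 genes), a replicate block gave 2717 and 2852 calls and the crossed pairing, added after seeing the data, 3158 and 3320.

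Signs turned for *Wnt4* (-0.068 with at least 150 CPM of *Lgr5*, -0.11 thinned and -0.17 with members under 300 CPM of *Foxl2* and *Fst*), for *Axin2* and *Kitl* (-0.0372 and -0.0375 in the last setting), and with comparison cells held to the members' limits for *Ddx4* (0.022), *Sycp3* (0.070), *Smc1b* (0.22) and *Bub1* (0.080), none of them called there. With members at or above 300 CPM of *Foxl2* and *Fst*, chosen after seeing the data, *Gng13* (1.41), *Bmp2* (1.73), *Lhx9* (0.75) and *Wnt4* (0.076) turned within dKO XY, and the counts were 12 and 20, and 0 and 1 for the difference. The causes were not tested. In the counts that follow, a gene not called in the full fit that stayed so counts as having kept its side. Of 138 values of named genes with a library left out in the *Foxl2*/*Fst* comparison, 85 kept their side of the threshold and 53 lost the call, and none turned.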
